A study of Macaca mulatta with 33 samples.

Results

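The early response of the primate corpus luteum to human chorionic gonadotropin (hCG) was described from 8 of the 33 arrays of the series, 4 of hCG-treated tissue and 4 of untreated tissue. The arrays were chosen by their labels, not by their values. All 8 bear the number of array set 1 in their names. Female rhesus macaques had received hCG in rising doses from day 9 of the luteal phase, a protocol that imitates early pregnancy, and the corpora lutea of the hCG group were removed on day 10, after 1 day of treatment. The untreated corpora lutea were also removed on day 10 and had received neither hCG nor any other agent. Each array measured RNA of whole corpus luteum on the Affymetrix Rhesus Genome design, and 4 more untreated day 10 arrays, replicates 6 to 9 of array set 2, served as a check. The other groups of the series added the steroid synthesis inhibitor trilostane, trilostane with the synthetic progestin R5020, or longer treatment.

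The corpus luteum is the gland that the ruptured follicle becomes, and its progesterone prepares and maintains the uterus for pregnancy. In primates it depends on luteinizing hormone in the cycle and on chorionic gonadotropin of the implanting embryo afterwards. Both hormones bind the same receptor on luteal cells, which couples mainly to cyclic AMP and protein kinase A and raises cholesterol supply and steroid output. Luteal cells share the gland with many endothelial cells, and with pericytes, fibroblasts and immune cells.

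Values are log2 intensities per probe set, with each array centred on its median, and are called log2 levels here. A gene is represented by 1 probe set, and 10288 genes with a single symbol were tested among 27867 probe sets. The tissue label fitted its markers: STAR, which delivers cholesterol to the mitochondria of luteal cells, averaged 14.66 ± 0.06 in hCG tissue and 14.51 ± 0.06 in untreated tissue (SD, n = 4 each), close to the top of the scale, and the endothelial adhesion molecule PECAM1 averaged 10.66 ± 0.21 and 10.75 ± 0.17. The neutrophil gene S100A8, at 6.15 ± 0.24 and 6.23 ± 1.02, lay near 6.21, the median of all values, as did the keratin KRT19, at 6.09 ± 0.51 and 6.36 ± 0.78. Other genes of the epithelial list stood higher, such as the claudin CLDN3 at means of 11.19 with hCG and 10.32 without. The receptor gene LHCGR, the angiogenic factor VEGFA and the prostaglandin synthase PTGS2 had no probe set that passed the filter with a single symbol and are not analysed here. Pairs of the 8 arrays differed by a root mean square of 0.325 to 0.6 in log2 level. The closest pair joined hCG array 1 with untreated array 1, closer than any pair within a group (0.344 to 0.504). The first principal component of the 8 arrays held 37.9% of the variance and separated the groups.

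One day of hCG was compared with no treatment to ask which luteal genes respond first. Of 10288 genes, 211 were higher and 74 were lower in hCG tissue at an adjusted p under 0.05 (limma, Benjamini-Hochberg over all probe sets tested), which is 2.05% and 0.719% of the genes. Over probe sets the counts were 473 higher and 197 lower, 1.70% and 0.707% of 27867. Over all genes, called or not, 61.6% lay above 0 and the median change was 0.06. The median size of the change was 0.89 among the genes that rose and 0.80 among those that fell, on the log2 scale, and 85 and 18 genes changed by more than 2-fold. The 4 hCG arrays lay clear of the 4 untreated arrays for 204 of the 211 genes and for 69 of the 74, while the same held for 10.0% (higher) and 3.40% (lower) of all genes, 13.4% in all. Because the genes were called on these same arrays, this separation follows largely from their choice. The 4 hCG arrays lay beyond all 8 untreated arrays, set 2 included, for 122 of the genes that rose and 42 of those that fell, against 2.53% and 1.61% of all genes. The call was kept for 92 of the 285 genes in each of the 8 fits that left out 1 array. The number of genes called in those fits ran from 111, without hCG array 3, to 357, without hCG array 1. Nothing in the labels says that the samples came from separate animals, so each p-value reflects only how much these samples varied.

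The 12 largest rises were those of ELF5, KCNG3, MFSD2A, DNAJA4, FST, TDRD9, ENPP3, SHC4, RCAN1, HAL, CLMP and MEIG1, by fitted log2 change. ELF5, an ETS-family transcription factor of secretory epithelia such as the mammary gland, had log2 levels of 9.85, 7.0, 9.08 and 10.06 in hCG arrays 1 to 4, against 6.29, 4.63, 5.51 and 5.93 in untreated arrays 1 to 4. Its hCG arrays varied more than those of other genes named here, with array 2 lowest, yet all 4 exceeded the 8 untreated arrays. ELF5 rose by 3.41 ± 0.84 (log2 change ± SE, limma adjusted p = 0.047), at least 6.89-fold when counted from the median of all values, because the untreated mean lay below it. KCNG3, a modifying subunit of voltage-gated potassium channels, had levels of 7.12, 7.30, 7.04 and 7.83 in hCG arrays and 5.41, 4.51, 4.87 and 4.82 in untreated arrays. It rose by 2.42 ± 0.45 (adjusted p = 0.012). Its untreated levels lay below the median of all values, so its rise is given as at least 2.16-fold, counted from that median. This is less than for the other 11 genes, and its place among them rests on the fitted change. MFSD2A, which carries lysophospholipids with omega-3 fatty acids across membranes, had levels of 8.64, 9.38, 9.21 and 9.96 with hCG and 6.91, 7.11, 6.99 and 6.84 without. Its untreated arrays lay within a narrow band, and hCG raised it 5.05-fold (log2 change 2.34 ± 0.34, adjusted p = 0.0036).

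DNAJA4, a co-chaperone of the heat shock protein 40 family, stood at 10.56, 11.02, 10.90 and 10.59 in hCG arrays, against 8.36, 8.71, 8.46 and 8.50 in untreated arrays, a 4.78-fold rise (adjusted p = 0.01) shared by both of its other probe sets. HAL, the enzyme that starts histidine breakdown, had 9.51, 9.14, 9.56 and 8.96 with hCG and 8.05, 7.43, 7.29 and 7.0 without, and rose 3.6-fold (adjusted p = 0.0046). CLMP, an adhesion molecule of epithelial junctions, had 12.08, 11.32, 11.75 and 12.12 with hCG and 10.08, 10.20, 9.67 and 10.18 without, a 3.45-fold rise (adjusted p = 0.0039). For each of these genes the groups were far apart relative to the spread within them. RCAN1, an inhibitor of the calcium-dependent phosphatase calcineurin, had 10.68, 10.91, 11.04 and 10.32 with hCG and 8.78, 8.90, 9.11 and 8.61 without, and rose 3.7-fold (adjusted p = 0.024). SHC4, an adaptor of receptor tyrosine kinases, rose at least 3.68-fold (adjusted p = 0.012), although its lowest hCG array, at 7.02, was level with untreated array 9 of set 2. ENPP3, an enzyme that splits extracellular nucleotides, rose 3.89-fold (adjusted p = 0.027). The germline genes TDRD9, a Tudor-domain helicase, and MEIG1, needed for sperm formation in mice, rose 3.91-fold (adjusted p = 0.0068) and 3.43-fold (adjusted p = 0.048).

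Of the 12 largest rises, those of KCNG3, MFSD2A, DNAJA4, FST, TDRD9, SHC4, HAL and CLMP kept their call without any 1 array. The ELF5 call ended without any 1 of hCG 1, 3 and 4 or untreated 1 to 4 (adjusted p from 0.072 to 0.12). The same arrays ended the MEIG1 call (0.062 to 0.16). The ENPP3 call ended without hCG 1, 2 or 4 or untreated 3 or 4 (0.054 to 0.087), and the RCAN1 call without hCG 2 or 3 or untreated 1, 2 or 4 (0.053 to 0.081).

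**Figure D1:**
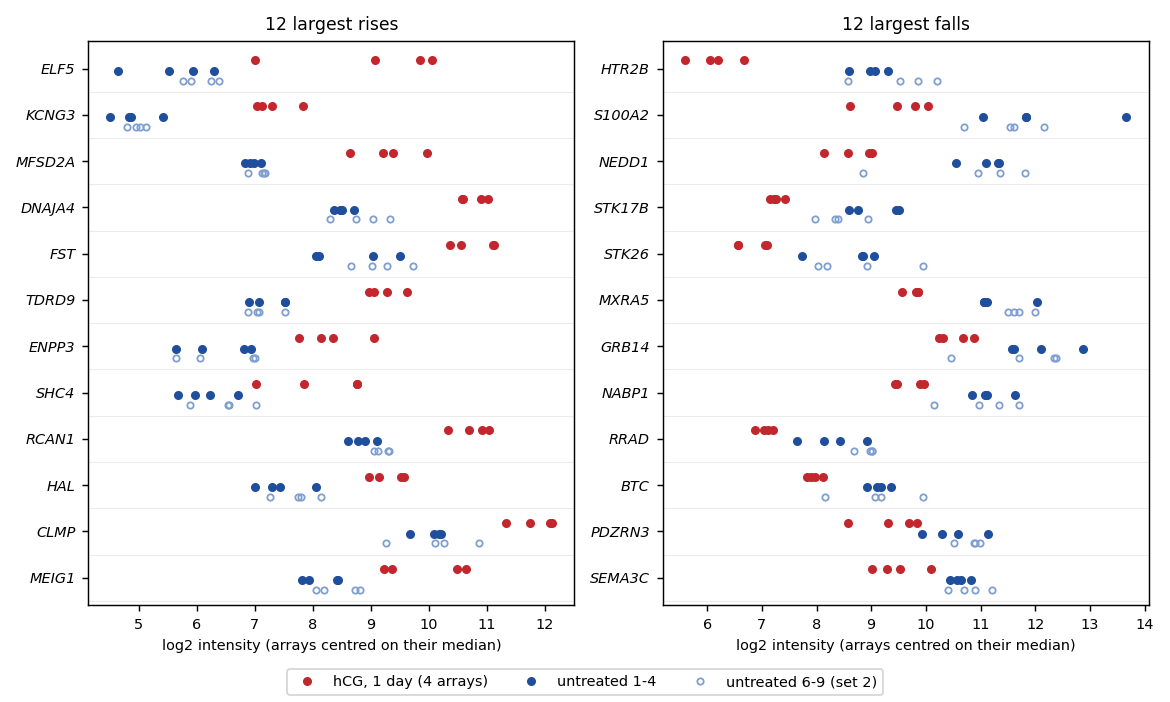
Log2 intensity (x axis, arrays centred on their median) of the 12 named genes with the largest rise (left) and the 12 with the largest fall (right). Each point is 1 array: filled red, 1 day of hCG; filled blue, untreated arrays 1 to 4 of array set 1; open circles, untreated arrays 6 to 9 of array set 2. The rule that chose the genes required red and filled blue points not to overlap. Open circles of SHC4, NEDD1 and GRB14 reach the red points.

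The largest fall was that of HTR2B, a serotonin receptor that signals through phospholipase C. HTR2B had log2 levels of 5.59, 6.05, 6.67 and 6.21 in hCG arrays, around the median of all values, against 8.60, 9.07, 8.97 and 9.30 in untreated arrays. The groups were far apart, and HTR2B fell by 2.86 ± 0.34 on the log2 scale (limma adjusted p = 0.001), at least 6.84-fold. In whole tissue, fewer cells of a type and less RNA per cell cannot be told apart, here and in every result below. S100A2, a calcium-binding protein known from epithelia, had 9.81, 8.61, 10.04 and 9.46 with hCG and 11.83, 13.67, 11.83 and 11.05 without, and fell 6.13-fold (adjusted p = 0.013). NEDD1, which brings gamma-tubulin to the centrosome, had 8.96, 9.02, 8.57 and 8.14 with hCG and 11.33, 10.55, 11.34 and 11.11 without. It had the smallest adjusted p of the genes named here (9.1e-05) and fell 5.31-fold, and its other 3 probe sets were called lower too. Untreated array 7 of set 2, at 8.85, nevertheless lay among the hCG arrays.

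The kinase genes STK17B, of the death-associated protein kinase family, and STK26, of the sterile 20 family, fell together. STK17B had 7.43, 7.22, 7.25 and 7.14 with hCG and 9.51, 9.45, 8.60 and 8.76 without (3.54-fold, adjusted p = 0.0018). STK26 had 6.56, 7.09, 6.56 and 7.05 with hCG and 8.84, 7.73, 9.05 and 8.84 without (3.48-fold, adjusted p = 0.0023). For both, hCG arrays were lower than all 8 untreated arrays, and every other probe set of each gene was called lower too. MXRA5, a proteoglycan of remodelling matrix, stood at 9.56, 9.83, 9.86 and 9.85 in hCG arrays, against 11.12, 12.04, 11.06 and 11.07 in untreated arrays (2.92-fold lower, adjusted p = 0.0052). NABP1, a single-stranded DNA-binding protein of DNA repair, fell 2.77-fold (adjusted p = 0.0096). RRAD, a small GTP-binding protein that restrains calcium channels, fell 2.34-fold (adjusted p = 0.013), and the ubiquitin ligase PDZRN3 fell 2.2-fold (adjusted p = 0.039). Of these 9 falls, only the PDZRN3 call ended in a fit without 1 array, when hCG 2, 3 or 4 or untreated 1, 3 or 4 was left out (0.062 to 0.11). In a fit of the 8 arrays with a term for replicate number, the S100A2 and STK26 calls ended (limma adjusted p = 0.098 and 0.056).

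Genes of the cyclic AMP pathway itself, which the hormone receptor drives, were mostly level. Of 40 tested genes of cyclic AMP signalling and its feedback, 2 were higher and 0 lower, 21 lay above 0, and the median change was 0.01. Over all genes 2.05% were higher and 0.719% lower, 61.6% lay above 0 and the median was 0.06. RGS2, which switches off G proteins of the phospholipase C pathway, had 13.30, 13.15, 13.54 and 13.13 with hCG and 12.27, 12.25, 11.80 and 12.14 without, and rose 2.24-fold (limma adjusted p = 0.028). Its other probe set had a change of 0.56 and was not called. PDE7B, a phosphodiesterase that degrades cyclic AMP, had 8.33, 8.59, 9.30 and 8.44 with hCG and 7.28, 7.88, 8.12 and 7.48 without, and rose 1.97-fold (adjusted p = 0.043). Neither gene overlapped between the groups of set 1, but untreated array 7 of set 2 had PDE7B at 8.60. SIK1, a salt-inducible kinase, had a change of 1.20 that did not pass (adjusted p = 0.28). The calcium and cyclic AMP feedback genes CREM (-0.20), PDE4B (-0.47) and DUSP1 (0.08) did not pass either. The RGS2 call ended without hCG 3 or 4 or any 1 of untreated 1 to 4 (0.052 to 0.097), and the PDE7B call without hCG 2, 3 or 4 or untreated 1, 2 or 4 (0.064 to 0.13).

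Of 17 tested hormone receptor genes, 0 were higher and 1, HTR2B, was lower, with 6 above 0 and a median change of -0.22. Over all genes 2.05% were higher and 0.719% lower, 61.6% lay above 0 and the median was 0.06. PGR, the progesterone receptor, had levels of 6.75, 6.35, 6.16 and 6.90 in hCG arrays and 7.14, 6.98, 7.05 and 6.92 in untreated arrays. All 4 hCG arrays were below the 4 untreated arrays, by as little as 0.02 for the nearest pair, and the change of -0.48 ± 0.25 did not pass (adjusted p = 0.32). Immediate early transcription factors, which gonadotropins induce quickly and for a short time, showed no call after 1 day: 0 of 20 were higher or lower, and 4 lay above 0. Their median change was -0.32. FOS (-0.36, adjusted p = 0.82), NR4A1 (-0.75, adjusted p = 0.13) and EGR2 (-1.05, adjusted p = 0.4) lay below 0, and CEBPB (0.59, adjusted p = 0.11) lay above it. The list's median in single arrays, relative to the untreated mean, ran from -0.28 to -0.14 with hCG and from -0.25 to 0.31 without, so the groups overlapped, with untreated array 1 highest.

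Among 30 other transcription regulators of luteal and granulosa cells, 2 were higher and 3 lower, and the median change was -0.01. Over all genes 2.05% were higher and 0.719% lower, and the median was 0.06. CEBPA, a regulator of metabolic and granulosa cell differentiation, had 10.46, 10.59, 10.29 and 11.22 with hCG and 8.99, 9.14, 9.10 and 8.69 without. It rose 3.16-fold (limma adjusted p = 0.0046) in all 3 of its probe sets, though untreated array 7 of set 2 stood at 10.25, just under the lowest hCG array. SOX4, a regulator of progenitor cells, had 10.53, 10.44, 10.27 and 10.38 with hCG and 11.66, 11.10, 11.17 and 11.65 without, a 1.99-fold fall (adjusted p = 0.019). SPRY2, an inhibitor of growth factor signalling to the MAP kinases, fell 1.49-fold (adjusted p = 0.022) and RUNX2, a runt-family factor that gonadotropins induce in the ovulating follicle, fell by 0.68 on the log2 scale (adjusted p = 0.044). The 4 other probe sets of RUNX2 were not called, with changes from -0.60 to -0.04. The steroidogenic regulators NR5A1 (0.23), NR5A2 (-0.13), GATA4 (0.26) and GATA6 (0.26) did not pass. Of 23 nuclear receptor and circadian clock genes, 1 was higher, 0 were lower, 18 lay above 0 (61.6% of all genes did) and the median change was 0.25. ARNTL, a core activator of the clock, had 10.26, 10.28, 10.25 and 10.64 with hCG and 9.87, 9.22, 9.12 and 9.49 without, and rose 1.9-fold (adjusted p = 0.038). Its partner CLOCK (-0.26), and PER1 (0.64) and NR1D1 (0.67, adjusted p = 0.053), which it activates, did not pass. The SOX4 call ended without hCG 3 or 4 or untreated 1 or 4 (0.052 to 0.067), and that of SPRY2 without hCG 3 or 4 or untreated 1, 2 or 4 (0.062 to 0.065). The RUNX2 call was kept only without hCG 2 among the 8 fits (otherwise 0.072 to 0.15), and the ARNTL call ended without hCG 2, 3 or 4 or untreated 2, 3 or 4 (0.066 to 0.11).

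**Figure D2:**
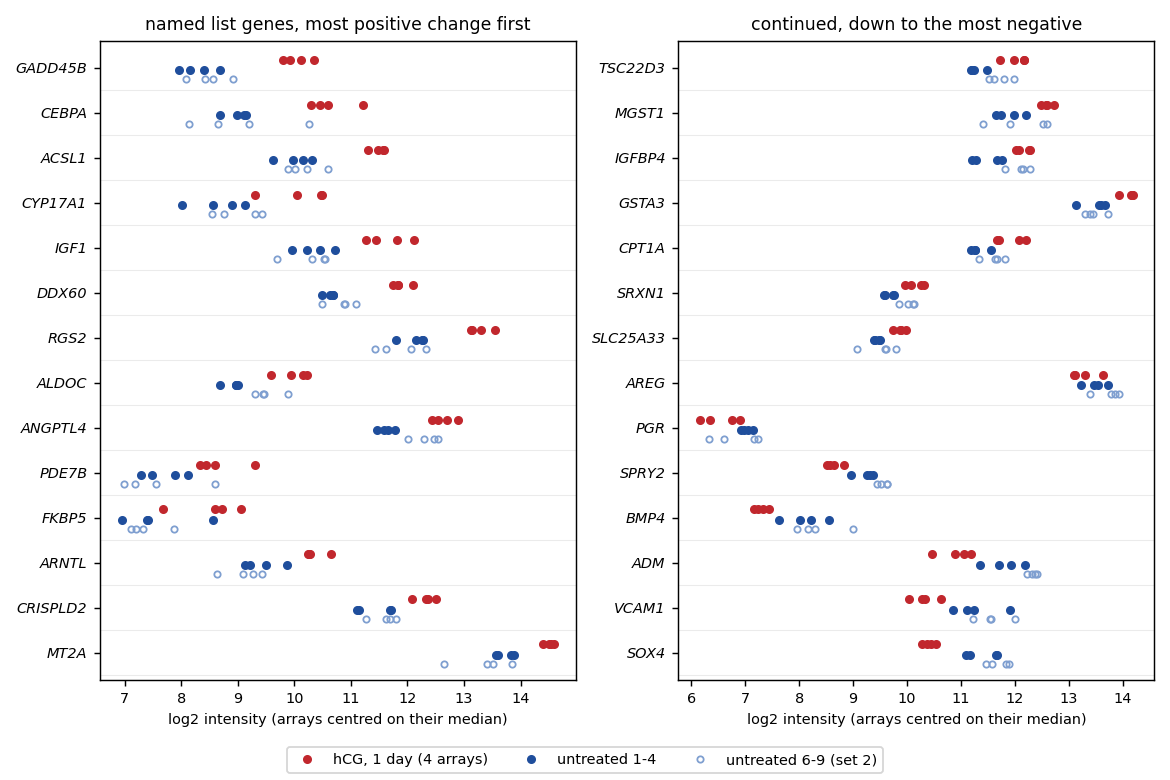
Log2 intensity (x axis, arrays centred on their median) of the genes named from the gene lists and of PGR, AREG and FKBP5, ordered by log2 change from the most positive (top left) to the most negative (bottom right). Each point is 1 array: filled red, 1 day of hCG; filled blue, untreated arrays 1 to 4; open circles, untreated arrays 6 to 9 of array set 2. The 4 red points of RGS2, GADD45B and ACSL1 lie to the right of all untreated arrays, those of SOX4, VCAM1 and SPRY2 to the left of them, and open circles of ANGPTL4, IGFBP4 and MGST1 lie within or beside the red points.

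Of the lists of secreted factors and their receptors, activin and TGF-beta, EGF, IGF and angiogenic genes each had 1 to 3 genes past the threshold, which is 6.06%, 7.14%, 11.1% and 9.09% of the genes tested, beside 2.77% of all genes. FST, follistatin, which captures activins, had 10.55, 11.10, 10.37 and 11.12 with hCG and 8.05, 9.49, 8.10 and 9.04 without. It rose 4.33-fold (limma adjusted p = 0.0036), and both of its other probe sets were called higher. BMP4, a bone morphogenetic protein, had 7.24, 7.33, 7.45 and 7.17 with hCG and 8.22, 8.56, 7.62 and 8.02 without, and fell 1.75-fold (adjusted p = 0.023). Of the 33 tested genes of the activin, inhibin, follistatin and TGF-beta family, FST and BMP4 were the 1 higher and the 1 lower gene, and the median change was -0.10. The activin subunit INHBA had a change of -1.26 (adjusted p = 0.17) and the inhibin subunit INHA of 0.25 (adjusted p = 0.31). The BMP4 call ended without hCG 4 or untreated 1, 2 or 4 (0.053 to 0.065).

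Among 14 genes of the EGF family and ovulation, 0 were higher and 1 was lower, with 4 above 0 and a median change of -0.15. BTC, betacellulin, a ligand of EGF receptors, had 7.97, 8.12, 7.82 and 7.89 with hCG and 9.10, 8.92, 9.18 and 9.37 without. Its hCG arrays were close together and below all untreated arrays, and it fell 2.29-fold (limma adjusted p = 0.024). AREG, amphiregulin, a related ligand, was abundant in every array, at 13.63, 13.12, 13.30 and 13.09 with hCG and 13.72, 13.22, 13.47 and 13.53 without. The 2 groups overlapped, and the change of -0.20 ± 0.41 did not pass (adjusted p = 0.82). The BTC call ended without hCG 3 or 4 or untreated 1, 3 or 4 (0.055 to 0.078).

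Insulin and IGF signalling had 2 higher and 1 lower of 27 genes and a median change of -0.03. IGF1, a growth factor made in the ovary as well as in the liver, had 11.82, 12.11, 11.27 and 11.43 with hCG and 10.72, 10.23, 9.95 and 10.45 without, and rose 2.5-fold (limma adjusted p = 0.036). IGFBP4, which binds it, rose 1.6-fold (adjusted p = 0.01). GRB14, an adaptor that inhibits the insulin receptor, had 10.24, 10.68, 10.32 and 10.88 with hCG and 12.11, 11.60, 11.58 and 12.88 without, a 2.85-fold fall (adjusted p = 0.0068). The insulin receptor substrate IRS2 had a change of 1.35 that just missed the threshold (adjusted p = 0.051). The IGF1 call ended without any 1 of the 8 arrays other than untreated 1 (0.059 to 0.10), while those of IGFBP4 and GRB14 were kept in all 8 fits. In set 2 the untreated arrays had IGFBP4 at 11.82 to 12.28, level with the hCG arrays (12.01 to 12.28).

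Of 33 angiogenic and vasoactive genes, 1 was higher and 2 were lower, with a median change of -0.12. ANGPTL4, a secreted inhibitor of lipoprotein lipase that also acts on vessels, had 12.53, 12.44, 12.70 and 12.90 with hCG and 11.66, 11.46, 11.78 and 11.58 without, and rose 2.03-fold (limma adjusted p = 0.015). Untreated arrays 6 and 7 of set 2, at 12.55 and 12.47, overlapped the hCG arrays. ADM, the vasodilator adrenomedullin, had 10.46, 11.06, 11.18 and 10.89 with hCG and 11.93, 11.70, 11.34 and 12.18 without, and fell 1.86-fold (adjusted p = 0.049). The guidance factor SEMA3C fell 2.2-fold (adjusted p = 0.037). The VEGF receptors KDR (-0.45, adjusted p = 0.6) and FLT1 (-0.25, adjusted p = 0.51) and the angiopoietin receptor TEK (-0.42, adjusted p = 0.31) did not pass. No member of the 24 WNT pathway genes or of the 7 prostaglandin genes tested passed; the median changes were 0.10 and 0.18, and the WNT antagonist SFRP2 had a change of 1.76 (adjusted p = 0.3). The ANGPTL4 call ended without hCG 3 or hCG 4 (0.052 both times), the ADM call without any 1 of the 8 arrays other than untreated 3 (0.07 to 0.14), and the SEMA3C call without any 1 other than hCG 4 (0.064 to 0.13).

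Of 19 tested genes known to respond to progestins or glucocorticoids, 6 were higher and 0 lower, 17 lay above 0, and the median change was 0.35. Over all genes 2.05% were higher and 0.719% lower, 61.6% lay above 0 and the median was 0.06. The list was written with earlier results of these data known, and the receptors of both hormones share many targets. MT2A, a metallothionein that binds zinc and copper, had 14.60, 14.40, 14.53 and 14.51 with hCG and 13.61, 13.89, 13.84 and 13.57 without, and rose 1.72-fold (limma adjusted p = 0.0053). TSC22D3, the glucocorticoid-induced leucine zipper, had 11.71, 12.17, 12.17 and 11.99 with hCG and 11.49, 11.23, 11.18 and 11.20 without (1.67-fold, adjusted p = 0.013). Untreated arrays 7 and 9 of set 2, at 11.98 and 11.80, lay within its hCG range. CRISPLD2, a secreted protein, rose 1.88-fold (adjusted p = 0.014), and the transcription factor KLF15 and the carboxypeptidase CPM rose by 0.84 (adjusted p = 0.02) and 1.28 (adjusted p = 0.022) on the log2 scale. The other probe sets of CRISPLD2 (0.56) and KLF15 (0.24) were not called, while that of CPM (1.13) was called higher. FKBP5, a chaperone partner of both receptors, had 9.05, 7.67, 8.71 and 8.59 with hCG and 8.56, 7.42, 7.38 and 6.94 without, with hCG array 2 low and untreated array 1 high. Its change of 0.93 ± 0.35 did not pass (adjusted p = 0.18).

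The median of the progestin and glucocorticoid list in single arrays was 0.44 to 0.67 above the untreated mean with hCG and -0.16 to 0.12 without. In array set 2, tissue after 1 day of hCG with trilostane and R5020 had 11 of the 19 genes above 0 and a median change of 0.07 against untreated arrays 6 to 9, and the difference between the sets was not tested. The TSC22D3 call ended without hCG 3 (0.054), the CRISPLD2 call without untreated 4 (0.05), the KLF15 call without hCG 2, 3 or 4 or untreated 2 or 3 (0.052 to 0.062), and the CPM call without hCG 2 or 3 or untreated 3 or 4 (0.059 to 0.071).

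Within the metabolic lists, the genes that passed were all higher with hCG, as were 211 of the 285 genes called among all genes. Over all genes 2.05% were higher and 0.719% lower, 61.6% lay above 0 and the median was 0.06. Of 32 genes of fatty acid handling and lipid droplets, 3 were higher and 0 lower, with 23 above 0 and a median change of 0.20. Besides MFSD2A they were ACSL1, which activates long-chain fatty acids, and CPT1A, which passes them into mitochondria. ACSL1 had 11.48, 11.30, 11.58 and 11.57 with hCG and 10.16, 10.31, 9.62 and 9.98 without, and rose 2.77-fold (limma adjusted p = 0.0029), and its other probe set was called higher too. CPT1A had 11.67, 11.70, 12.08 and 12.20 with hCG and 11.27, 11.55, 11.26 and 11.18 without (1.51-fold, adjusted p = 0.027). Its other probe set had a change of 0.04. ALDOC, an aldolase of glycolysis, rose 2.1-fold (adjusted p = 0.02) as the 1 gene called among 21 of glycolysis and hypoxia, whose median change was 0.11. SLC25A33, a mitochondrial carrier of pyrimidine nucleotides, rose 1.35-fold (adjusted p = 0.029) as the 1 gene called among 25 solute carriers (median 0.08). The shares called of the glycolysis and solute carrier lists, 4.76% and 4.0%, were near the 2.77% of all genes. The 23 genes of oxidative phosphorylation had no call, although 21 lay above 0, at a median of 0.07. Sterol synthesis, the list with the highest median (0.89), had 7 higher and 0 lower of 16 genes, and steroidogenesis had 2 higher and 0 lower of 15 (median 0.38). CYP17A1, which makes androgen precursors, rose 2.71-fold (adjusted p = 0.012), and POR, which feeds electrons to it, rose by 0.67 (adjusted p = 0.044), although its other 3 probe sets lay below 0 (-0.48 to -0.30, not called). Untreated array 9 of set 2 had CYP17A1 at 9.42, above the lowest hCG array (9.30). The CYP17A1 call ended in a fit of the 8 arrays alone (adjusted p = 0.052) and with the replicate block (0.11). The CPT1A call ended without hCG 3 or 4 or untreated 1, 3 or 4 (0.07 to 0.097), the ALDOC call without hCG 2, 3 or 4 or untreated 3 or 4 (0.051 to 0.073), the SLC25A33 call without any 1 of the arrays other than hCG 1 (0.058 to 0.099), and the POR call in each of the 8 fits (0.053 to 0.12).

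Antioxidant enzymes had 4 higher and 0 lower of 23 genes, 18 above 0 and a median change of 0.19, beside 2.05% higher, 61.6% above 0 and a median of 0.06 over all genes. MGST1, a membrane glutathione transferase, had 12.60, 12.72, 12.58 and 12.48 with hCG and 11.64, 11.99, 12.20 and 11.74 without, and rose 1.62-fold (limma adjusted p = 0.01). GSTA3, a transferase of steroid-producing tissues that also isomerises steroid precursors, had 14.17, 14.15, 13.92 and 14.18 with hCG and 13.55, 13.13, 13.60 and 13.67 without (1.53-fold, adjusted p = 0.015). Both had a further probe set called higher. SRXN1, which repairs peroxiredoxins, rose 1.4-fold (adjusted p = 0.04), and GCLC, the catalytic subunit that starts glutathione synthesis, rose by 0.90 (adjusted p = 0.047). The 4 other probe sets of GCLC were not called, with changes of 0.04, 0.20, 0.24 and 1.37. The SRXN1 call was kept only without hCG 2 (otherwise 0.068 to 0.13), and the GCLC call ended in each of the 8 fits (0.062 to 0.15). Untreated arrays 6 and 7 of set 2 had MGST1 at 12.59 and 12.52, and untreated arrays 6, 7 and 8 had SRXN1 at 10.13, 10.02 and 10.12, all within the hCG range.

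GADD45B, a stress-induced regulator of growth arrest, was the 1 gene called among 28 of apoptosis and survival (3.57%, beside 2.77% of all genes), whose median change was 0.01. GADD45B had 9.79, 9.92, 10.11 and 10.34 with hCG and 8.69, 8.40, 8.15 and 7.96 without, and rose 3.34-fold (limma adjusted p = 0.0082) in all 3 probe sets. The apoptosis mediators BAX (-0.61, adjusted p = 0.26) and PMAIP1 (-1.05, adjusted p = 0.083) and the survival factor BCL2 (0.02, adjusted p = 0.92) did not pass. No gene was called among 25 of endoplasmic reticulum stress and chaperones (median 0.12), 33 of cell division (median -0.10), 42 of the matrix and its proteases (median -0.07) or 25 ion channels (median -0.03). KCNG3 was not on the channel list.

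The interferon response list had the lowest median change, -0.53, with 31 of 33 genes below 0, but its 1 called member was higher. Of all genes, 61.6% lay above 0 and 2.77% were called. DDX60, a helicase of antiviral sensing, had 11.84, 11.84, 11.75 and 12.10 with hCG and 10.69, 10.68, 10.48 and 10.63 without, and rose 2.4-fold (limma adjusted p = 0.0038), while another probe set of the gene had a change of -1.14 that was not called. ISG15 (-0.97, adjusted p = 0.27), IFIT1 (-0.87, adjusted p = 0.15) and GBP1 (-1.74, adjusted p = 0.19) lay below 0 without passing. The list's median in single arrays ran from -0.69 to -0.30 with hCG and from -0.31 to 0.55 without. Untreated array 2, at 0.55, stood highest, and untreated arrays 1 and 4, at -0.31 and -0.26, lay beside the highest hCG array (-0.30). In array set 2, hCG with trilostane and R5020 against untreated had 18 of the 33 genes above 0 and a median of 0.03.

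Macrophage and monocyte markers also lay low with hCG, 18 of 19 below 0, none called, at a median of -0.17. Their mean log2 level was 8.71 to 9.11 over hCG arrays and 8.44 to 9.72 over untreated arrays. Their median in single arrays, relative to the untreated mean, was -0.43 to -0.03 with hCG, and 0.63, 0.39, -0.21 and -0.68 in untreated arrays 1 to 4. In array set 2 they lay the other way, 14 of 19 above 0 with a median of 0.08. Their part in the interferon values was not tested. Of 34 inflammation genes 1 was called (2.94%, beside 2.77% of all genes). VCAM1, an adhesion molecule that binds leukocytes to endothelium, was lower. It had 10.34, 10.27, 10.03 and 10.64 with hCG and 11.24, 11.90, 11.11 and 10.85 without, and fell 1.94-fold (limma adjusted p = 0.041). The call was kept only without untreated 4 (otherwise 0.053 to 0.14). IL1RL1, a receptor of interleukin 33, had a change of 2.26 that just missed the threshold (adjusted p = 0.052).

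Markers of the cell types of the gland were tested with the same fit. Of 119 marker genes, 4 were called, 3.36%, near the 2.77% of all genes: FST and CYP17A1 on the granulosa and theca list, and ELF5 and S100A2 on the epithelial list, where 1 was higher and 1 lower. No gene was called among 24 endothelial (median -0.07), 14 pericyte and smooth muscle (0.06), 14 fibroblast (-0.10), 12 lymphocyte (0.10), 6 neutrophil and mast cell (0.01) or 4 red cell markers (0.05), nor among 10 MHC class II genes (-0.08). The mean log2 level of the endothelial list was 8.98 to 9.31 over hCG arrays and 9.11 to 9.29 over untreated arrays, and that of the epithelial list 8.24 to 8.56 and 7.97 to 8.30.

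**Figure D3:**
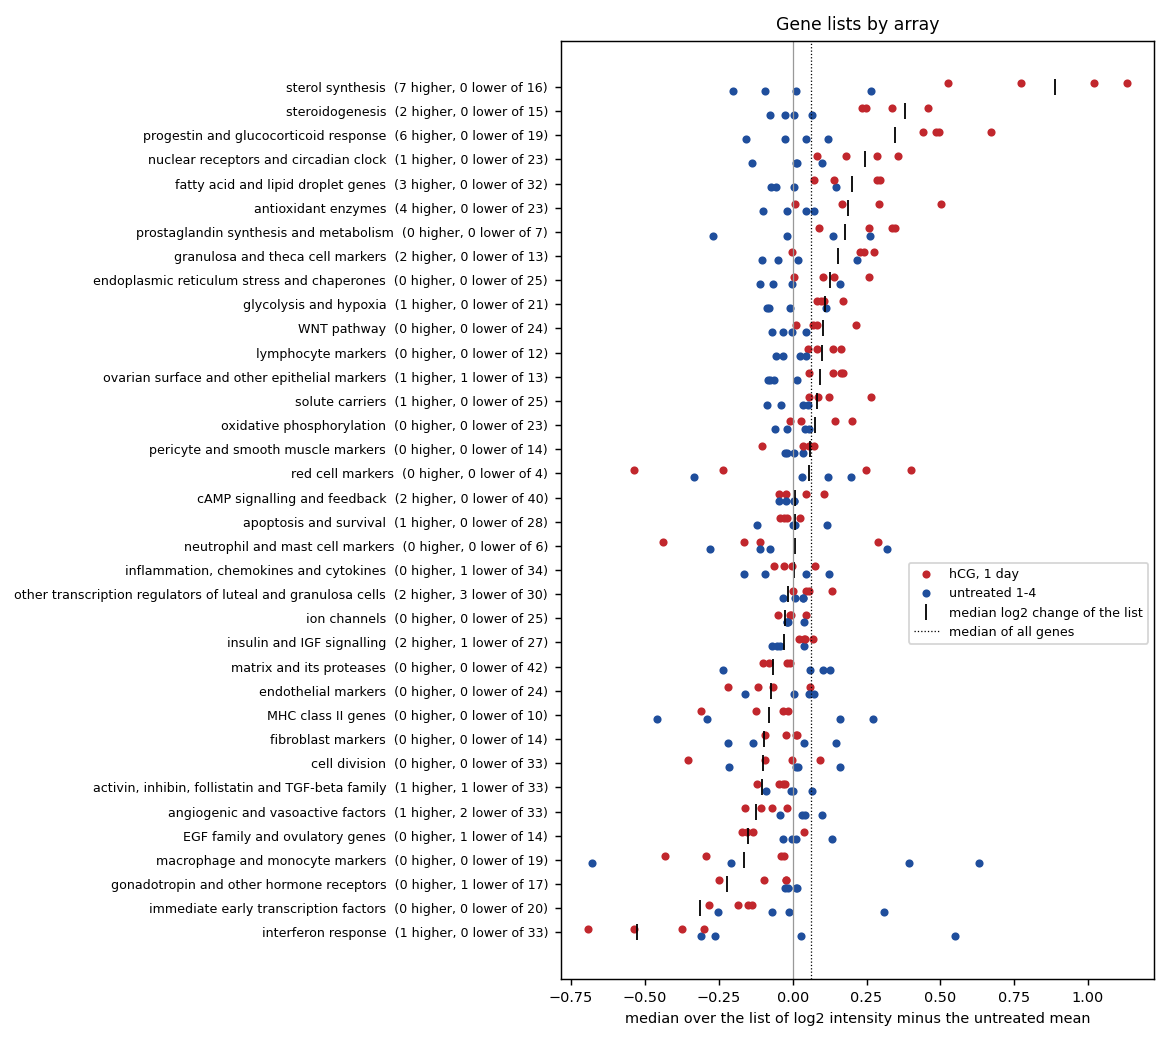
Median over each gene list (rows, ordered by the list's median log2 change) of the log2 intensity minus the untreated mean of each gene (x axis). Red points are the 4 hCG arrays, blue points the 4 untreated arrays of set 1, black ticks the list's median log2 change and the dotted line the median of all genes (0.06); row labels give the genes higher and lower of those tested. The red points of the progestin and glucocorticoid list (0.44 to 0.67) lie clear of its blue points (-0.16 to 0.12), while those of the interferon list (-0.69 to -0.30) overlap the blue ones (-0.31 to 0.55).

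A second comparison with no array in common was used as a check: tissue after 1 day of hCG given with trilostane and R5020 against untreated arrays 6 to 9, all in array set 2. It is no replicate of hCG alone, because steroid synthesis was blocked and a progestin supplied. There, 35 genes were higher and 34 lower (limma, adjusted p under 0.05), which is 0.340% and 0.330%, and 2982 probe sets had an unadjusted p under 0.05. Of the 211 genes that rose with hCG alone, 206 lay above 0 (50.2% of all genes did) and 21 passed. Of the 74 that fell, 73 lay below 0 (49.8% of all genes did) and 7 passed, and none passed in the opposite direction. The median change was 0.45 for the 211 genes and -0.64 for the 74, against 0.00 for all genes. All 49 named genes that passed with hCG alone had the same sign there, and 8 passed.

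The 8 genes were MFSD2A (1.35, limma adjusted p = 0.015), FST (1.49, 0.012), HAL (1.46, 0.021), STK17B (-1.49, 0.027), MXRA5 (-1.43, 0.021), RRAD (-1.45, 0.0083), BTC (-1.67, 0.046) and VCAM1 (-1.46, 0.017). HTR2B had a change of -2.46 there, against -2.86 with hCG alone, that did not pass (adjusted p = 0.14). Changes smaller than with hCG alone were measured for KCNG3 (0.92), SHC4 (0.49), IGFBP4 (0.24), ANGPTL4 (0.45), TSC22D3 (0.20) and MEIG1 (0.59), none past the threshold, and the differences between the comparisons were not tested. The count of genes called in set 2 was 170 without untreated array 7 and 8 without replicate 3 of the treated tissue, and 57 and 5 of them were also called with hCG alone.

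**Figure D4:**
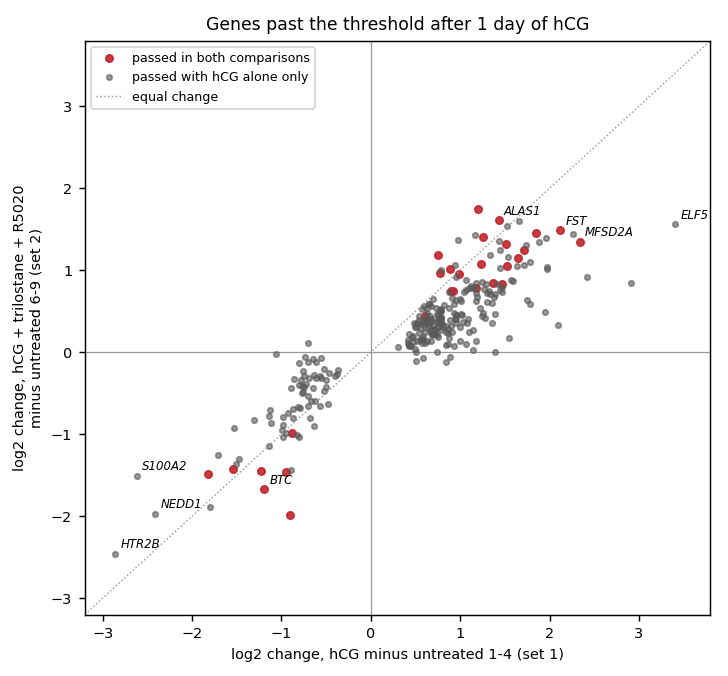
Log2 change of the 285 genes past the threshold after 1 day of hCG, in array set 1 (x axis, hCG minus untreated 1 to 4) and in array set 2 (y axis, hCG with trilostane and R5020 minus untreated 6 to 9). Each point is 1 gene, red where it also passed in set 2 (28 genes), and the dotted line marks equal change. All but 6 genes lie in the quadrants of equal sign, and most points lie nearer to 0 on the y axis than on the x axis.

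The untreated arrays of set 2 did not all lie with those of set 1. On a scale where the untreated mean of set 1 is 0 and the hCG mean is 1, the median position over the 285 genes was 0.82, 0.98, 1.14 and 1.07 for hCG arrays 1 to 4, against -0.06 to 0.04 for untreated arrays 1 to 4. Untreated arrays 6, 7, 8 and 9 of set 2 stood at 0.26, 0.43, 0.18 and 0.05. The genes were chosen on the arrays of set 1 that define the scale. Untreated array 7 reached or passed the nearest hCG array for 90 of the 285 genes (31.6%), among them NEDD1 and GRB14, and array 6 for 49 (17.2%).

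Levels in the other treated groups of array set 1 are given side by side for a few of the genes, without a test, since these groups would be compared with the same untreated arrays. ELF5 averaged 9.00 ± 1.40 after 1 day of hCG, 8.02 ± 2.18 after 1 day of hCG with trilostane and 5.12 ± 0.22 after 6 days of hCG, against 5.59 ± 0.71 untreated (SD, n = 4 each, as for the values that follow). HTR2B averaged 6.13 ± 0.45, 5.97 ± 0.35 and 8.56 ± 0.84 in the same treated groups, against 8.99 ± 0.29 untreated, and MXRA5 averaged 9.78 ± 0.15, 9.92 ± 0.42 and 11.26 ± 0.39, against 11.32 ± 0.48. The 6-day means of these 3 genes lay nearer to the untreated mean than to the 1-day mean. NEDD1 averaged 8.67 ± 0.41, 8.79 ± 0.11 and 8.79 ± 0.31, against 11.08 ± 0.37 untreated, and CEBPA 10.64 ± 0.41, 10.85 ± 0.58 and 10.95 ± 0.33, against 8.98 ± 0.20. For both genes the 6-day level was close to the 1-day level. The 6-day tissue also differed in luteal day, 15 against 10.

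Genes with several probe sets gave a further view of the measurement. Another probe set was kept for 151 of the 285 genes. For 71 of them at least 1 other probe set was called in the same direction, and for 15, among them DDX60, POR and DESI2, another had the opposite sign. None was called in the opposite direction. Other probe sets of ARNTL (0.87), SEMA3C (-0.83), PDZRN3 (-0.88), CRAT (0.18), ALAD (0.89) and PEX11A (0.44) had the same sign but were not called. RCAN1 had another called (2.04) and another not (0.17), as did SOX4 (-0.97 and -0.88) and ADA (1.44 and 0.05). For IGF1 another was called (1.47), and those at 0.66 and 1.09 were not.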

How the data were processed

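Whole corpora lutea of rhesus macaques were measured on Affymetrix Rhesus Genome arrays, and the authors deposited 1 table of log2 values per probe set and array. How the intensities were background-corrected, summarised and normalized is not given here by the labels or the file header. Array medians ran from 6.15 to 6.32, and each array was centred on its median before testing. Control probe sets (158) were left out of 52865. Gene symbols came from the platform annotation: 24956 probe sets had 1 symbol, 361 several and 27390 none. A probe set was kept with values above 6.21 (the median of all values of the 16 centred arrays of set 1) in 4 or more of those 16 arrays. A gene took the kept probe set of 1 symbol with the highest mean.

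The 16 arrays of array set 1 (4 groups of 4) were fitted with limma 3.58.1 under R 4.3.3, using lmFit and trended eBayes, and hCG was contrasted with untreated. P-values were adjusted by Benjamini-Hochberg over 27867 probe sets, and calls were made at 0.05. The residual degrees of freedom were 12 and the median residual SD was 0.212, and the number of arrays limits the precision. Set 2 was fitted alone in the same way, with 14 arrays. A fold counted from 6.21 is written "at least" where a group mean lay below it.

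Genes were named by rule: the 12 largest rises and the 12 largest falls among non-overlapping genes past the threshold, outside the sterol and steroid lists and without LOC symbols; up to 3 passing genes per list by smallest adjusted p; and PGR, AREG and FKBP5 always. LHCGR and VEGFA were also on that rule but had no kept probe set. Further list members are given as examples. The 36 gene lists named 1237 entries, of which 911 matched a symbol. The members, lists and rules were chosen with earlier results of these data known.

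Replicate numbers are shared between the groups, but the deviations of same-numbered arrays correlated at 0.43, 0.04, 0.00 and 0.04, so the numbers were not taken to pair samples. Alternatives varied centring, the filter, the arrays fitted, trend, array weights, terms for marks in the array names, a replicate block, the probe set rule, the untreated arrays used, and each array left out in turn. Promoter sequences were not used here.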

Additional observations from a re-analysis of the deposited data

Results flagged for a closer look

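Of 104 groups of 4 arrays of named genes, 6 held 1 array whose distance from the nearest of the others exceeded Dixon's critical value, and chance gives about 1 such group in 20. Among hCG arrays, replicate 1 had MXRA5 at 9.56 (others 9.83 to 9.86), replicate 4 had ARNTL at 10.64 (others 10.25 to 10.28) and replicate 3 had GSTA3 at 13.92 (others 14.15 to 14.18). Among untreated arrays of set 1, replicate 2 had STK26 at 7.73 (others 8.84 to 9.05) and MXRA5 at 12.04 (others 11.06 to 11.12), and replicate 3 had ALDOC at 8.68 (others 8.96 to 9.01). In each of these genes the outlying array stayed on its own group's side. The naming rule required this of MXRA5 and STK26, and the other genes had been called on the same arrays.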

How the results depend on the processing

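All 285 genes kept their sign under every alternative but 3: the mean of a gene's probe sets (283 of 285), the stricter filter (277 of the 277 still tested) and untreated arrays 6 to 9 in place of 1 to 4 (272). Counts moved more. Genes higher and lower numbered 211 and 74 (473 and 197 probe sets). Quantile normalization gave 120 genes and 304 probe sets lower, and a fit of the 8 arrays alone gave 48 genes lower. Without the filter, 146 and 51 genes passed, and 188 of the 285 were held. It ended 11 of the 49 named calls: ELF5 (limma adjusted p = 0.067), MEIG1, PDZRN3, SEMA3C, PDE7B, ARNTL, IGF1, ADM, SLC25A33, SRXN1 and VCAM1. Terms for the letter and for the mark in braces of the array names ended 5 and 6 named calls, that of ELF5 in both (0.057 and 0.054). All 33 arrays gave 455 and 129 genes (1033 and 356 probe sets). Array weights gave 339 genes higher (752 and 331 probe sets). The replicate block, in a fit of the 8 arrays, gave 127 and 24 genes (302 and 83 probe sets) and held 119 of the 285. It ended 18 of the 49 named calls, among them S100A2 (limma adjusted p = 0.098), STK26 (0.056), IGFBP4 (0.11), MGST1 (0.054) and GSTA3 (0.079). The numbers were not taken to pair the samples, but the labels do not settle this, and hCG 1 and untreated 1 were the closest arrays. Among named genes, the calls of PDZRN3, PDE7B, BMP4, ADM, CPT1A, SLC25A33, SRXN1, VCAM1 and CYP17A1 ended in the fit of the 8 arrays, and those of CPT1A and DDX60 with the mean of a gene's probe sets. Without hCG 1 and untreated 1 together, chosen after seeing that these arrays were close, 125 and 34 genes passed (293 and 126 probe sets). With each array left out, 89 to 267 genes were higher and 22 to 90 lower (204 to 593 and 63 to 321 probe sets). Untreated arrays 6 to 9 gave 0 calls of genes or probe sets in limma (2064 probe sets at an unadjusted p under 0.05); there the sign of ANGPTL4 (-0.13) and AREG (0.87) turned, and of the 49 named genes past the threshold 12 were over 1.5 times smaller or turned and 8 over 1.5 times larger. The smallest were VCAM1 (-0.02 there, -0.95 as reported), MGST1 (0.08, 0.70), ALDOC (0.13, 1.07) and S100A2 (-0.14, -2.62); the others were MEIG1 (0.71), STK17B (-0.75), MXRA5 (-0.88), TSC22D3 (0.27), CPT1A (0.24), DDX60 (0.72) and CYP17A1 (0.79). In that fit hCG and untreated lay in different array sets, joined only through array set 3, a further set of the series. Array set 1 was tied to it by a single array, replicate 3 of the 6-day hCG group. The fit therefore cannot separate a shift of that array from a change with hCG. In set 2, 69 genes passed, 28 of them in both comparisons; the 8 arrays alone gave 14 and 6, and leaving out each array gave 8 to 170 and 5 to 57. The folds of KCNG3, ELF5, SHC4 and HTR2B are lower bounds counted from 6.21, the median of all values, which is not a measured background.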

Other observations

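The haem and fatty acid genes below were put together after the values were seen, so they are described without a test. Their shares called reflect that choice and cannot be weighed against those of all genes. In haem synthesis, 2 of 7 genes were higher, 5 lay above 0 and the median change was 0.24. Over all genes 2.05% were higher, 61.6% lay above 0 and the median was 0.06. ALAS1, the first and rate-limiting enzyme, had log2 levels of 12.43, 12.84, 12.64 and 12.46 with hCG and 10.68, 11.83, 11.46 and 10.67 without (limma change 1.43, adjusted p = 0.028), and ALAD, the next enzyme, had 9.45, 9.10, 9.58 and 9.29 with hCG and 8.48, 8.18, 8.13 and 7.66 without (1.24, adjusted p = 0.017). Both genes lay clear of the untreated arrays of set 1. In array set 2, with hCG, trilostane and R5020, ALAS1 passed (1.61, adjusted p = 0.031) and ALAD did not (0.44, adjusted p = 0.49). The ALAS1 call ended without hCG 2, 3 or 4 or untreated 1 or 4 (0.059 to 0.089), and the ALAD call without hCG 3 or untreated 4 (0.064 both times).

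The fatty acid oxidation and peroxisome list also held genes outside both processes, such as the secreted lipase inhibitor ANGPTL4. Of its 21 genes, picked with their values known, 8 were higher and 0 lower, 18 lay above 0 and the median change was 0.31. Over all genes 2.05% were higher and 0.719% lower, 61.6% lay above 0 and the median was 0.06. Besides ACSL1, CPT1A and ANGPTL4 they were VNN1, a pantetheinase that feeds coenzyme A turnover (1.25, limma adjusted p = 0.048), the acyl-CoA thioesterase ACOT6 (1.14, adjusted p = 0.0094), EHHADH, an enzyme of peroxisomal oxidation (0.95, adjusted p = 0.031), the carnitine acetyltransferase CRAT (0.79, adjusted p = 0.011) and PEX11A, which promotes peroxisome division (0.72, adjusted p = 0.034). Members not called included the oxidation genes ACADM (-0.18), ACADS (-0.01), ACADL (-0.03), HADHA (0.23) and HADHB (0.25). In array set 2, 19 of the 21 lay above 0 (50.2% of all genes did), but none of the 8 that were higher passed there. ACSL1 had a change of 0.79 there (limma adjusted p = 0.076) and ACOT6 of 0.03 (adjusted p = 0.97). The calls of ACOT6 and CRAT were kept without any 1 array. Those of VNN1 (0.064 to 0.12), EHHADH (0.068 to 0.09) and PEX11A (0.073 to 0.095) each ended without any 1 of 6 arrays.

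Other genes picked after their values were seen kept their call without any 1 array: ADA, which deaminates adenosine (1.52), STIM1, a sensor of stored calcium (1.17), PCYT1B, an enzyme of phosphatidylcholine synthesis (1.22), and MOCOS, which completes the molybdenum cofactor (1.64).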
